A study of Ovis aries with 36 samples.

Results

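The hippocampus and the motor cortex of the same 9 lambs were compared in 18 of the 36 libraries of the series, 9 from each region, chosen by the tissue and animal given in their labels and paired within each lamb. The lambs came from 3 arms. In the Experimental arm, called supported here, 5 lambs (A to E, 4 female and 1 male) were delivered preterm, cannulated at once, kept on the EXTEND system and examined when close to the age of the next arm. The Late pre-term ctrl arm held 2 male lambs (F and G), delivered at 127 days and examined at once. The Pre-term ctrl arm held 2 lambs (H, female, and I, male), delivered preterm and examined at once. EXTEND supports a preterm lamb outside the uterus after cannulation. The sources used here do not give the delivery age of the supported and preterm lambs, the length of support or the breed. Messenger RNA from flash-frozen tissue was sequenced, and the deposited values are reads counted per gene.

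The hippocampus lies at the inner edge of the cerebral cortex and is known for its part in memory. Its principal cells are the granule neurons of the dentate gyrus and the pyramidal neurons of the hippocampus proper, and the dentate gyrus goes on making neurons late in development. The motor cortex is a layered area of the neocortex whose deep pyramidal neurons project to the brainstem and spinal cord. Both develop from the dorsal telencephalon, whereas the basal ganglia come largely from the ventral telencephalon.

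Genes are named only by Ensembl identifier, because no table used here pairs those identifiers with symbols. Marker genes of the hippocampus, the cortical layers, the choroid plexus, blood or other cell types could therefore not be looked up, the labelled tissues could not be checked against their defining markers, and no role can be given for a gene. In bulk tissue, fewer cells of a type and less RNA per cell cannot be told apart. Counting was unstranded, so reads from antisense or overlapping genes cannot be told apart.

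The libraries held 10150099 to 18153142 counts, 10150099 to 12595338 in lambs A, H and I and 13765297 to 18153142 in lambs B to G. Both libraries of a lamb lay in the same depth class, so the paired difference sets libraries of like depth side by side. Depth was higher in the hippocampus in 5 of 9 lambs (exact sign-flip permutation test, two-sided p = 0.23). Hippocampus libraries had a count for 18830 to 19601 genes and motor cortex libraries for 18758 to 19409, with more in the hippocampus in 7 of 9 lambs (exact sign-flip permutation test, two-sided p = 0.0508).

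Some hippocampus libraries matched the profile of another region better than that of their own label. For each library, the other 8 lambs gave a mean profile per region, and the centred library was correlated with each profile over genes. All 9 motor cortex libraries matched the motor cortex profile best of the 4 regions, at correlations of 0.423 to 0.741. Of the 9 hippocampus libraries, 4 (lambs A, C, D and F) matched the hippocampus profile best. The margin was narrow in lamb A, at 0.485 against 0.422 for the motor cortex. It was narrow too in lamb C, at 0.261 against 0.231 for the basal ganglia. Lambs D and F stood at 0.538 and 0.418, against 0.376 and 0.294 for the basal ganglia. The hippocampus libraries of lambs B and E were closer to the basal ganglia profile, at 0.424 and 0.476, than to the hippocampus profile, at 0.0724 and 0.108. Those of lambs G, H and I were closer to the motor cortex profile, at 0.62, 0.508 and 0.458, than to the hippocampus profile, at 0.369, 0.231 and 0.291. Both preterm hippocampus libraries and 1 of the 2 late preterm ones thus matched the motor cortex. The profiles averaged lambs of all arms with no adjustment for arm, and the hippocampus profile included libraries that matched another region. The basal ganglia library of preterm lamb I also matched the motor cortex best, at 0.522. A shift by arm or animal and a mismatch of tissue cannot be told apart here. Against the hippocampus and motor cortex profiles alone, the hippocampus libraries of lambs G, H and I again matched the motor cortex. The other 6 matched their own region, at 0.0741 in lamb A and at 0.261 to 0.416 in lambs B to F.

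**Figure D1:**
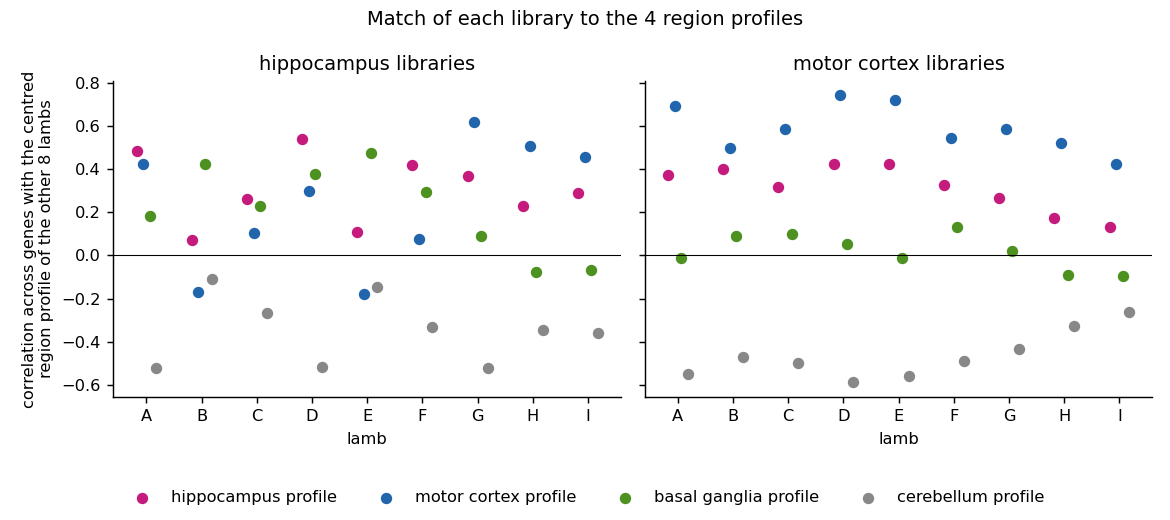
Correlation across genes of each of the 18 libraries (x axis, lamb) with the centred profiles of the 4 regions in the other 8 lambs (y axis, 1 point per profile). The motor cortex profile lies highest for the hippocampus libraries of lambs G, H and I, and the basal ganglia profile for those of lambs B and E; in all 9 motor cortex libraries the motor cortex profile lies highest.

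The first question was which genes separated the regions in all 9 lambs together. Of 15432 tested genes, 34 differed (0.22% of the genes tested), 17 higher in the hippocampus (0.11%) and 17 higher in the motor cortex (0.11%). The test was edgeR's quasi-likelihood F-test, blocked by lamb, with Benjamini-Hochberg adjustment, called at an adjusted p under 0.05. The unadjusted p was under 0.05 for 2410 genes (15.6%). The count depended on the tool and its settings: DESeq2 called 690 genes, limma-voom 83, edgeR with no filter on low counts 106 and edgeR with equal weight per arm 5. The 17 genes higher in the hippocampus had a median absolute log2 fold change of 0.92, from 0.35 to 2.97, and the 17 higher in the motor cortex one of 1.08, from 0.63 to 4.56. Over all tested genes this median was 0.11. The sign of the paired difference was the same in all 9 lambs for 31 of the 34 genes and in 8 lambs for the other 3. The 31 were 15 genes higher in the hippocampus and 16 higher in the motor cortex. Of all 15432 genes 292 (1.89%) had the same sign in 9 lambs, 145 towards the hippocampus (0.94%) and 147 towards the motor cortex (0.953%). Levels in the 9 hippocampus and 9 motor cortex libraries did not overlap for 8 of the 34 genes, beside 13 of all tested genes (0.0842%), 4 of which were higher in the hippocampus (0.0259%) and 9 higher in the motor cortex (0.0583%). These counts describe the called genes and are not further evidence, since the test used the same differences.

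Among called genes with a mean of at least 1 log2 CPM, ENSOARG00000020689 had the largest difference towards the motor cortex over all 9 lambs. CPM is the count relative to the library's total, scaled by edgeR's TMM factors. Its level in the hippocampus was 0.238 CPM at the lowest (3 counts, in lamb H), 0.835 at the median and 1.57 at the highest (n = 9). In the motor cortex the lowest, median and highest levels were 1.9, 4.42 and 14.7 CPM. Every motor cortex library lay above every hippocampus library. The log2 fold change, hippocampus minus motor cortex, was -2.64 ± 0.21 (SE), a 6.24-fold difference (edgeR adjusted p = 0.00119), and the paired log2 differences ran from -1.77 in lamb B to -3.4 in lamb G. The motor cortex level itself varied widely between lambs, from 1.9 CPM in preterm lamb H to 14.7 CPM in supported lamb D.

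ENSOARG00000015684 was steadier in the motor cortex, at 17.7, 21.5 and 26.7 CPM (lowest, median and highest of 9), and lower in the hippocampus, at 1.4, 3.71 and 9.18 CPM. The levels did not overlap. Its log2 fold change was -2.57 ± 0.26 (SE; edgeR adjusted p = 0.0047), lower in the hippocampus in 9 of 9 lambs. The smallest paired difference, -0.93 on the log2 scale, was in preterm lamb I, whose hippocampus library held the most, 9.18 CPM. The other preterm lamb, H, had a difference of -2.88.

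ENSOARG00000020698 changed less but as evenly. It is named after its values were seen, because it was the only other gene called whichever lamb was left out. Hippocampus levels were 12.3, 19 and 23 CPM (lowest, median and highest) and motor cortex levels 24.1, 34.1 and 42.1 CPM, again without overlap. The log2 fold change was -0.88 ± 0.08 (SE; edgeR adjusted p = 0.00392), and the paired differences were between -0.56 in lamb A and -1.26 in lamb I.

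Of the genes higher in the hippocampus, ENSOARG00000010412 had hippocampus levels of 3.27, 9.37 and 15.8 CPM (lowest, median and highest) and motor cortex levels of 1.18, 2.37 and 7.54 CPM. The levels overlapped, and lamb B went the other way, with 6.25 CPM in the hippocampus against 7.54 CPM in the motor cortex. The log2 fold change was 1.75 ± 0.29 (SE; edgeR adjusted p = 0.042), higher in 8 of 9 lambs. The call was lost without any of lambs A, C, D, E, F, G or H (edgeR adjusted p of 0.0595 to 0.127) and with equal weight per arm (0.0739).

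ENSOARG00000004527 was higher in the hippocampus in 9 of 9 lambs, at 12.5, 22.1 and 34.7 CPM against 6.89, 8.2 and 15.5 CPM in the motor cortex (lowest, median and highest). The overlap came from the late preterm hippocampus of lamb G, at 12.5 CPM, and the motor cortex of lambs B and E, at 15.5 and 13.4 CPM. Its log2 fold change was 1.25 ± 0.17 (SE; edgeR adjusted p = 0.0248). Without lamb A, C, D or F it was not called (edgeR adjusted p of 0.0719 to 0.0991), at log2 fold changes of 1.21 to 1.26, nor with equal weight per arm (edgeR adjusted p = 0.0523).

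**Figure D2:**
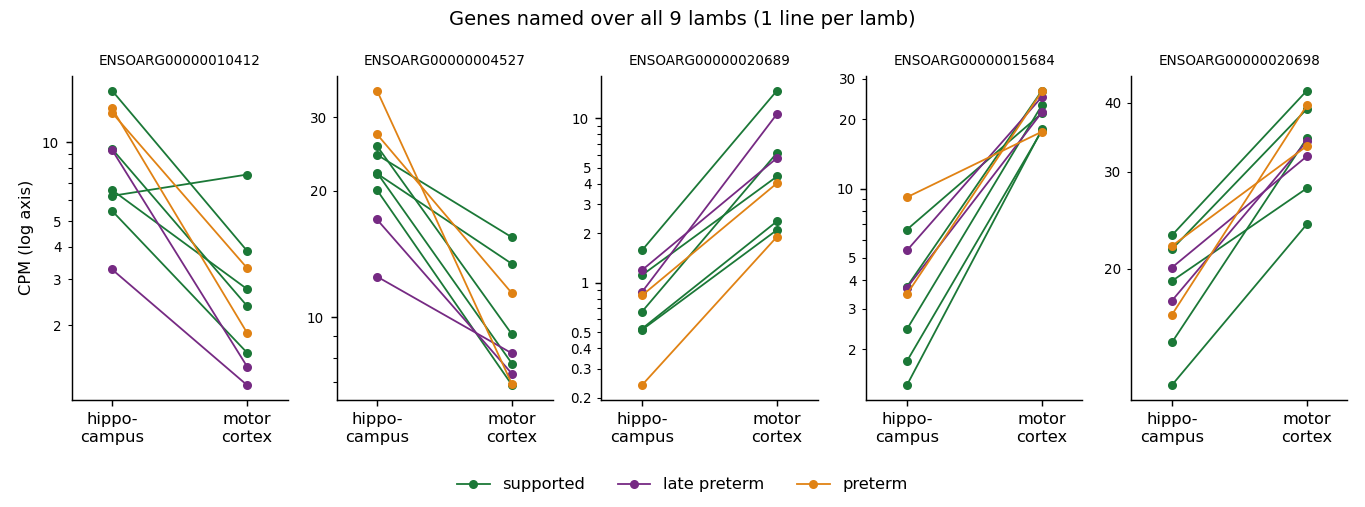
Level in the hippocampus and motor cortex (y axis, CPM on a log axis) of the 5 genes named over all 9 lambs; each line joins the libraries of 1 lamb and is coloured by arm. ENSOARG00000020689, ENSOARG00000015684 and ENSOARG00000020698 rise from hippocampus to motor cortex in every lamb, and ENSOARG00000010412 falls in all lambs but B.

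The number of called genes depended on single lambs. It was 4 without lamb A, 3 without C, 3 without D, 8 without E and 4 without F, and 100 without lamb I. Without lambs A, C or D no gene higher in the hippocampus was called. ENSOARG00000020689, ENSOARG00000015684 and ENSOARG00000020698 were the 3 genes called in every one of the 9 fits that left out a lamb. Without lambs G, H and I, whose hippocampus libraries matched the motor cortex, 586 genes were called, 228 higher in the hippocampus and 358 higher in the motor cortex, and 31 of the 34 were among them. Without lambs B, E, G, H and I, 410 were called (188 and 222), 26 of the 34 among them. These lambs were chosen by how far their hippocampus stood from the motor cortex or the group, so a rise in calls follows in part from the choice. Within the shallower lambs A, H and I no gene was called (edgeR, 990 at an unadjusted p under 0.05), and within lambs B to G 27 were, 5 higher in the hippocampus and 22 higher in the motor cortex. Without the lamb as a block 74 genes were called, 20 of them among the 34.

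The next question was how the region difference stood within each arm. In the 5 supported lambs 1468 of 15432 genes differed (9.51%), 610 higher in the hippocampus (3.95%) and 858 higher in the motor cortex (5.56%), by edgeR's test on the region difference of that arm, with the spread shared over the 3 arms. The median absolute log2 fold change was 0.71 for the former and 0.60 for the latter, beside 0.19 over all tested genes. At least a 2-fold difference was reached by 175 and 171 genes, and by 833 of all 15432 tested genes, called or not. The sign was the same in 5 of 5 supported lambs for 1402 of the 1468 genes, and it was so for 3795 of all tested genes (24.6%). The genes higher in the motor cortex were the more abundant ones, at a median of 6 log2 CPM against 4.39 for those higher in the hippocampus, with 4.60 over all tested genes.

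**Figure D3:**
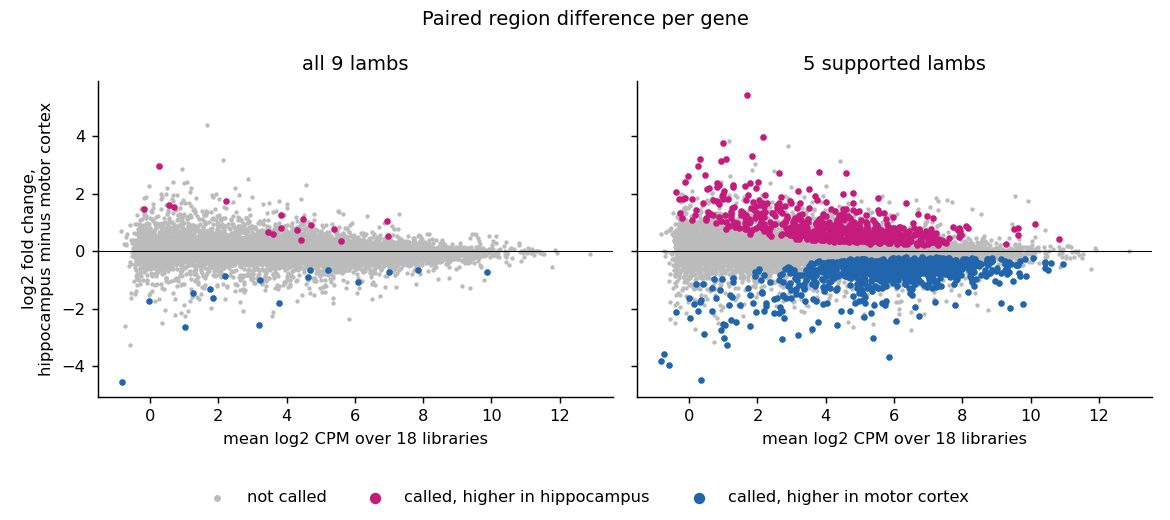
Log2 fold change, hippocampus minus motor cortex (y axis), against mean log2 CPM over the 18 libraries (x axis) for the 15432 tested genes, over all 9 lambs (left) and within the 5 supported lambs (right). Coloured points are genes at an edgeR adjusted p under 0.05, 34 on the left and 1468 on the right.

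Fitted on the supported lambs alone, 317 genes were called (132 and 185). Without lambs B and E, whose hippocampus libraries matched the basal ganglia, 256 were called, 97 higher in the hippocampus and 159 higher in the motor cortex. The count was 411 without lamb B, 231 without C, 690 without D, 252 without E, 914 without H, 908 without I and 783 without the lamb block. There were 161 genes called in all 9 fits that left out a lamb, 54 higher in the hippocampus and 107 higher in the motor cortex.

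ENSOARG00000015112 had the largest difference towards the hippocampus in the supported lambs. Its hippocampus level was 14.7, 191, 14.2, 15.6 and 46.4 CPM in lambs A to E, and its motor cortex level 1.31, 0.317, 0.964, 0.758 and 0.598 CPM. The highest values, 191 and 46.4 CPM, were in the hippocampus libraries of lambs B and E, and the groups did not overlap. The basal ganglia of lambs B and E held little of this gene. With all 36 libraries scaled together, they stood at 0.96 and 0.44 log2 CPM, against 7.62 and 5.57 in the hippocampus. Over the 9 lambs the basal ganglia ran from 1.22 to 123 CPM, with a median of 2.22. The highest was the basal ganglia library of lamb G, at 6.94 log2 CPM, against -0.07 in the hippocampus of that lamb. The log2 fold change was 5.43 ± 0.98 (SE; edgeR adjusted p = 0.0183). It was 4.5 without lamb B. It was 3.91 without lambs B and E and was then not called (edgeR adjusted p = 0.0695), and it was not called without lamb C or lamb E (edgeR adjusted p = 0.0529 and 0.0613). In the late preterm arm lamb F had 45.9 CPM in the hippocampus against 0.932 in the motor cortex, while lamb G had 0.809 and 1.46. The preterm lambs H and I had 1.5 and 1.76 CPM in the hippocampus against 0.414 and 0.561 in the motor cortex. Lambs G, H and I, whose hippocampus libraries matched the motor cortex, were thus the lambs with hippocampus levels under 2 CPM. The gene was chosen for its difference in the supported lambs. Its region difference did not pass the threshold in the joint test between arms (edgeR adjusted p = 0.574).

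ENSOARG00000020799 followed a like order. In lambs A to E the hippocampus held 8.03, 148, 20.8, 10.7 and 24.9 CPM and the motor cortex 1.05, 2.73, 1.93, 1.57 and 1.14 CPM. The log2 fold change in the supported lambs was 3.99 ± 0.76 (SE; edgeR adjusted p = 0.0215). Without lambs B and E it was 3.06 and not called (edgeR adjusted p = 0.111), and the call was also lost without lamb B, C or E alone (edgeR adjusted p of 0.0589 to 0.0691). Hippocampus levels elsewhere were 25.4 CPM in lamb F, 0.944 in G, 1.98 in H and 10.8 in I, against 2.05, 3.57, 0.745 and 0.841 CPM in the motor cortex. Lamb G was again the lamb whose hippocampus lay below its motor cortex. This gene too was chosen in the supported lambs, and it did not pass the threshold in the joint test between arms (edgeR adjusted p = 0.53). In the basal ganglia of the 9 lambs this gene ran from 5.66 to 135 CPM with a median of 28.6. That lay above the hippocampus median of 11 CPM when all 36 libraries were scaled together. On that scale lamb G stood at 6.1 log2 CPM in the basal ganglia and 0.13 in the hippocampus. Lamb H stood at 6.1 and 1.11.

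ENSOARG00000009954 was lower in the hippocampus. The 5 supported hippocampus libraries held 34.4, 3.44, 28.1, 20.3 and 1.81 CPM (lambs A to E) and the motor cortex libraries 164, 163, 125, 185 and 159 CPM, with no overlap. The lowest levels were those of lambs B and E. The log2 fold change was -3.68 ± 0.63 (SE; edgeR adjusted p = 0.0171). Late preterm lambs F and G had 36.7 and 104 CPM in the hippocampus against 111 and 211 in the motor cortex, and preterm lambs H and I had 88 and 42.2 against 121 and 78.2 CPM. The hippocampus was thus lower in every lamb of the other arms too, by paired log2 differences of -0.46 to -1.59. Those of the supported lambs were -2.15 to -6.35. The gene was chosen for its difference in the supported lambs, so smaller differences elsewhere follow in part from the choice. In the joint test of the region difference between arms it did not pass the threshold (edgeR adjusted p = 0.337). Without lambs B and E the log2 fold change was -2.52 (edgeR adjusted p = 0.0106). In the fit of the supported lambs alone it was not called (-3.69, edgeR adjusted p = 0.0544).

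The paired difference of ENSOARG00000007278 had opposite signs in the supported and preterm lambs. In lambs A to E the motor cortex held 7.44, 3.17, 11.9, 16.3 and 6.34 CPM and the hippocampus 1.83, 0.401, 0.998, 1.79 and 0.117 CPM, the last resting on 2 counts. The log2 fold change in the supported lambs was -3.26 ± 0.39 (SE; edgeR adjusted p = 0.00738). In preterm lambs H and I the motor cortex held 0.745 and 0.374 CPM (9 and 4 counts) and the hippocampus 1.19 and 0.928 CPM (15 and 10 counts). The log2 fold change in the preterm lambs was 0.93 ± 0.73 (SE) and was not called (edgeR adjusted p = 0.999, unadjusted p = 0.237). The late preterm lambs went the way of the supported ones, with 3.73 and 5.56 CPM in the motor cortex and 1.95 and 1.69 CPM in the hippocampus. The hippocampus level of the preterm lambs was within the range of the supported lambs, and the motor cortex level was below all of them. The difference between the arms, supported minus preterm, was -4.19 ± 0.83 on the log2 scale (SE) and did not pass the threshold (edgeR adjusted p = 0.168, unadjusted p = 0.000688).

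**Figure D4:**
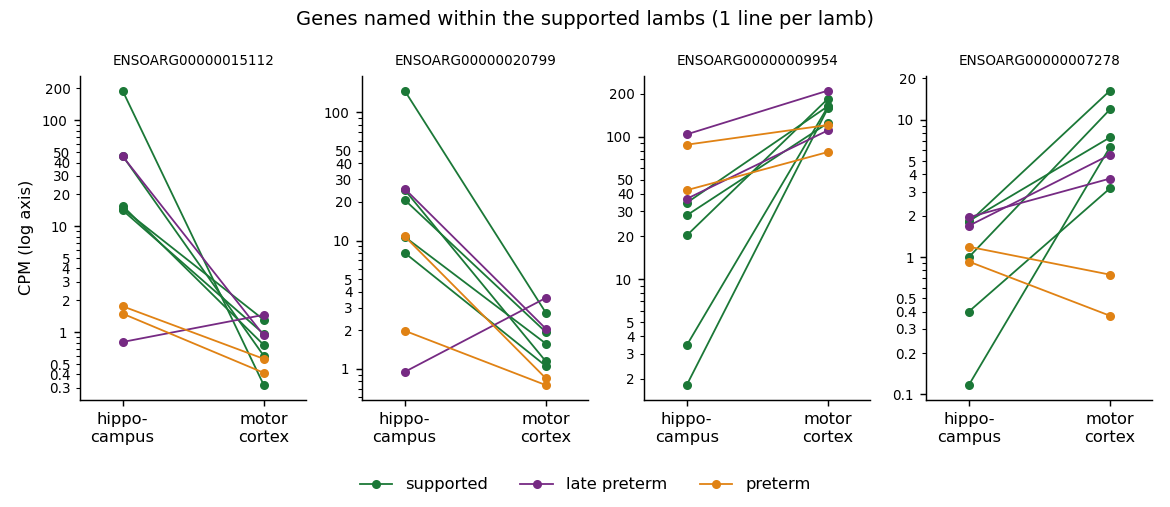
Level in the hippocampus and motor cortex (y axis, CPM on a log axis) of the 4 genes named within the supported lambs, with 1 line per lamb coloured by arm. The supported lambs move the same way in each panel; late preterm lamb G goes the other way for ENSOARG00000015112 and ENSOARG00000020799, and both preterm lambs do for ENSOARG00000007278.

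Within the late preterm and within the preterm lambs no gene passed the threshold in edgeR (0% of 15432 genes in each). The unadjusted p was under 0.05 for 1021 genes (6.62%) in the late preterm and 669 (4.34%) in the preterm lambs, and DESeq2 called 23 and 5 genes. The unadjusted count of the late preterm arm was 605 without lamb G, and that of the preterm arm was 253 without lamb I. Each of these arms holds 2 lambs, 3 of the 4 hippocampus libraries in them matched the motor cortex profile, and both preterm lambs lie in the shallower depth class. The part of depth, of the matches and of the arm in these counts cannot be told apart.

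A call in the supported lambs and none elsewhere does not show that the arms differ, so the difference itself was tested. No gene passed in the joint test over the 3 arms (0% of 15432; edgeR, smallest adjusted p = 0.27), where 2155 genes (14%) passed an unadjusted p of 0.05 and DESeq2 called 363. For supported minus preterm the unadjusted count was 2514 (16.3%; smallest edgeR adjusted p = 0.168, DESeq2 391 genes). For supported minus late preterm it was 1923 (12.5%; DESeq2 79), and for late preterm minus preterm 684 (4.43%; DESeq2 2), with 0 genes called by edgeR in each. The joint unadjusted count was 1140 and the supported minus preterm count 840 without lamb I, and the supported minus late preterm count was 699 without lamb G. The late preterm minus preterm count was 425 without lamb G and 293 without I. Between the sexes 0 genes passed in edgeR (0%) and 0 in DESeq2. The unadjusted p was under 0.05 for 390 genes (2.53%), and for 1451 without lamb C, 1032 without H, 202 without B, 212 without E and 178 without I. Most supported lambs were female and both late preterm lambs were male. The fit by sex held no region-by-arm term, so sex and arm cannot be told apart.

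Lambs that had no part in a call were then used to read its direction. The 317 genes called in the supported lambs alone include 310 that were tested in all 9 lambs. In late preterm lamb F, 250 of these 310 (80.6%) had the same sign, with a median log2 difference of 0.38 in the direction called, beside 55.5% over all tested genes. In lamb G 177 (57.1%) had it, in lamb H 171 (55.2%) and in lamb I 137 (44.2%), beside 47.5%, 48.3% and 42.1% over all tested genes. The median difference in the direction called was 0.06 in lamb G, 0.03 in H and -0.07 in I, against 0.84 in the lambs that chose the genes, where selection enlarges it. The share was highest in lamb F, the one of these 4 whose hippocampus library matched its own region. The match and the share are not independent, since both set a lamb's regions against those of other lambs. For the 1468 genes called in the fit of all arms, the spread was shared with these lambs. Of them 934 (63.6%) had the same sign of log2 fold change in the late preterm arm, beside 51.7% over all tested genes. In the preterm arm 508 (34.6%) had it, below the 42.8% over all tested genes.

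The same reading was made for each lamb in turn, with genes at an unadjusted p under 0.05 in the other 8 lambs. The share with the same sign in the lamb left out was 74.5% to 86.1% in the 5 supported lambs and 77.6% in lamb F. It was 52.8% in lamb G, 52.7% in lamb H and 41.1% in lamb I. The lambs lay closer together or overlapped in the smaller sets of genes. Among those that were also at least 2-fold different in the other 8 lambs, the share was 68.3% in lamb B, 85.3% to 94.8% in lambs A, C, D, E and F, 66.2% in G, 55.7% in H and 58.6% in I. Among genes called in the other 8 lambs it was 24 of 34 (70.6%) in lamb B, 19 of 24 (79.2%) in G, 30 of 41 (73.2%) in H and 50 of 99 (50.5%) in I, and all of the 3 to 8 such genes in each of the other lambs. Of the 27 genes called in lambs B to G, 25 (92.6%) had the same sign in lamb A, 20 (74.1%) in H and 12 (44.4%) in I. Over all tested genes the share was 58.4% to 67.9% in lambs A to F and 43.9% to 49.5% in G, H and I. The correlation across genes of a lamb's paired difference with the mean of the other 8 was 0.374 to 0.579 in lambs A to F, 0.115 in G, 0.0354 in H and -0.011 in I. In size the differences of G, H and I were not all small. At least a 2-fold difference was seen in 641, 586 and 1110 genes in these lambs, against 879 in A, 2489 in B, 1267 in C, 1090 in D, 2123 in E and 888 in F. Lambs B and E, whose hippocampus libraries matched the basal ganglia, thus had the most such genes.

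**Figure D5:**
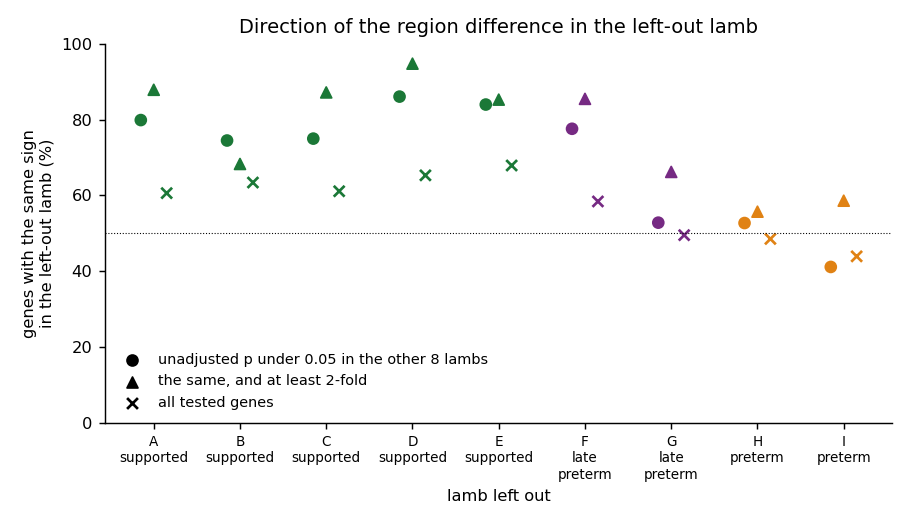
Share of genes (y axis, percent) whose paired region difference had the same sign in the lamb left out (x axis) as in the other 8 lambs, for genes at an unadjusted p under 0.05 in those 8, the same at 2-fold or more, and all tested genes; colours mark the arm and the dotted line marks 50%. The circles lie at 74.5% or above in lambs A to F and at 52.8% or below in lambs G, H and I, while among the triangles lamb G (66.2%) lies close to lamb B (68.3%).

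The levels of the genes called in the supported lambs were set beside those of the other 4 lambs, region by region. For the 610 genes higher in the hippocampus, the hippocampus libraries lay below the supported mean by a median log2 difference of -0.13 in lamb F, -0.45 in G, -0.71 in H and -0.57 in I. Their motor cortex libraries lay above it by 0.34, 0.11, 0.02 and 0.22. For the 858 genes higher in the motor cortex, the hippocampus libraries were above the supported mean by 0.16, 0.39, 0.51 and 0.35, and the motor cortex libraries lay at -0.27, -0.21, -0.09 and -0.34. Over all tested genes these medians were -0.03 to 0.02. In lambs G and H the hippocampus lay further from the supported mean than the motor cortex did for both sets of genes, and in lamb I it did so for the former set, while the latter stood at 0.35 and -0.34. The genes were chosen for their difference in the supported lambs, so some shift of this kind follows from the choice.

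The spread between lambs was wider in the hippocampus. Among the supported lambs the median SD of log2 CPM over 13980 genes with a mean of at least 1 log2 CPM was 0.26 for hippocampus libraries and 0.171 for motor cortex libraries, and it was larger in the hippocampus for 74.1% of the genes. The SD was over 1 for 660 genes among hippocampus libraries and 124 among motor cortex libraries. Without lambs B and E the medians were 0.214 and 0.164, 63.4% of the genes varied more in the hippocampus, and the SD was over 1 for 291 and 170 genes. These shares are descriptions with no test.

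The basal ganglia and cerebellum of the same lambs, which took no part in the calls, place the genes among the 4 regions. Here too labels and profiles differed, since the basal ganglia libraries of lambs A, F and G were closest to the hippocampus profile and that of lamb I to the motor cortex profile. Of all 15432 tested genes, 14% had their highest mean log2 CPM in the hippocampus, 26% in the motor cortex, 22.2% in the basal ganglia and 37.8% in the cerebellum. Of the 17 genes higher in the hippocampus over all lambs, 8 had their highest mean log2 CPM in the hippocampus, 5 in the basal ganglia and 4 in the cerebellum. Of the 17 higher in the motor cortex, 15 had their highest mean there and 2 in the cerebellum. The basal ganglia mean was nearer to the hippocampus than to the motor cortex for 15 and 14 of these genes, and for 68.5% of all tested genes. Of the 610 genes higher in the supported hippocampus, 100 (16.4%) were highest in the hippocampus, a share near that of all tested genes, 299 (49%) in the basal ganglia and 211 (34.6%) in the cerebellum. Of the 858 higher in the motor cortex, 731 (85.2%) were highest there. Genes called as higher in one of the regions were bound to be seldom highest in the other, so these shares follow in part from the choice. Without lambs B and E, 45 of the 97 genes higher in the hippocampus (46.4%) were highest there, 26 in the basal ganglia and 26 in the cerebellum, and 136 of the 159 higher in the motor cortex (85.5%) were highest there. Over all genes tested without those lambs the shares were 15.5% for the hippocampus and 23.6% for the motor cortex. The basal ganglia mean was nearer to the hippocampus for 584 of the 610 genes (95.7%) and 801 of the 858 (93.4%). Without lambs B and E it was so for 78 of the 97 (80.4%) and 137 of the 159 (86.2%). For the 610 and 858 genes the median log2 difference from the motor cortex was 0.53 and -0.44 in the basal ganglia. In the hippocampus it was 0.38 and -0.32. No test was made of these counts, and the part of the libraries that matched another region in them was not tested.

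Among the named genes, ENSOARG00000015684 had its highest median in the motor cortex (21.9 CPM), then the basal ganglia (8.31), the hippocampus (3.72) and the cerebellum (2.55), all 36 libraries being scaled together. The basal ganglia ran from 1.36 to 25.2 CPM and overlapped both neighbours in this order. The highest basal ganglia library was that of lamb I (4.66 log2 CPM), which matched the motor cortex profile best. The next, that of lamb E at 3.93 log2 CPM, lay under the lowest motor cortex library, at 4.19. ENSOARG00000020689 had medians of 4.44 CPM (motor cortex), 0.853 (hippocampus), 0.387 (basal ganglia) and 0.32 (cerebellum). Its highest basal ganglia library, at 2.36 CPM, lay above the lowest motor cortex library, at 1.94, and its highest cerebellum library, at 1.58, lay under it. ENSOARG00000004527 was highest in the hippocampus, at a median of 22.4 CPM, followed by 15.8 in the basal ganglia, 8.36 in the motor cortex and then 7.74 in the cerebellum. The ranges of all 4 regions overlapped. The lowest hippocampus and basal ganglia libraries stood at 12.6 and 12 CPM, and the highest motor cortex and cerebellum libraries at 15.6 and 17.2 CPM.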

How the data were processed

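Whole-number read counts per gene were deposited for 36 libraries. The authors removed adapters with fastp and aligned with STAR (named in the submitters' processing notes), using SeqKit for quality checks and the sheep genome and annotation of Ensembl release 107, and they took STAR's unstranded gene counts, per the series' design text. The sources used here give neither tool versions nor the assembly name. Columns were matched to samples by name. None of the identifiers matched the reference table (0 of 27054), so the marker lists were not used, and no sequences are printed.

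The 18 libraries were fitted with edgeR 4.0.16 in R 4.3.3 (TMM factors, filterByExpr by region, quasi-likelihood F-test, lamb as a block, Benjamini-Hochberg threshold of 0.05); the SE is the log2 fold change divided by the square root of F. Arms and sexes were tested through region-by-arm and region-by-sex terms. CPM and log2 CPM (prior count of 2) were computed here from the deposited counts. The block rests on the labels: each lamb gave both libraries. Deviations of its libraries from the region means of its arm correlated, in each lamb, at 0.102 to 0.338. In the late preterm and preterm arms the deviations mirror each other, so lambs F and G share a value (0.293), as do H and I (0.202). Libraries of different lambs were not compared in this way, so these values do not test the pairing. The 24 pairs of libraries of 1 region and arm differed by a chi-square per degree of freedom of 8.17 to 97.5, so none was a copy. Alternatives included DESeq2 1.42.0, limma 3.58.1, other scaling and filters, and leaving out lambs. The tests were tried on simulated counts.

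Named genes were the 2 with the largest log2 fold change each way among called genes whose mean was 1 log2 CPM or more and, over all lambs, the same sign in at least 8 of 9. Genes called in every fit that left out a lamb were named too. This comparison, its lists and its tests were chosen with earlier results of these data known.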

Additional observations from a re-analysis of the deposited data

Results flagged for a closer look

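ENSOARG00000007278 moved one way in all supported and late preterm lambs and the other way in both preterm lambs. The mean paired log2 difference, hippocampus minus motor cortex, was 0.82 in the 2 preterm lambs, -1.27 in the 2 late preterm lambs and -3.15 in the 5 supported lambs. In the test of the difference itself it did not pass the threshold (edgeR adjusted p = 0.168 for supported minus preterm and 0.984 for late preterm minus preterm). The preterm motor cortex libraries held 9 and 4 counts of this gene. No lamb stood apart from the other 8 in the 34 sets of values examined for a single extreme sample.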

How the results depend on the processing

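The count of called genes stayed within 1.5 times its reported value in 8 of 23 alternatives for the paired comparison and in 6 of 16 within the supported lambs. For the paired comparison (34 genes), the count was 74 with no replicate block for the lamb, 106 with no filter on low counts, 690 in DESeq2, 83 in limma-voom, 0 in lambs A, H and I, 317 in the supported lambs alone, 586 without lambs G, H and I and 410 without lambs B, E, G, H and I. It was 42 over 36 libraries of 4 regions and 27 in lambs B to G. With equal weight per arm, an alternative chosen after seeing the data, it was 5. Leaving out 1 lamb at a time gave 3 to 100, and 8 without lamb E. Within the supported lambs (1468 genes), the count was 783 with no replicate block and 2469 in DESeq2, and 231 to 1757 without 1 lamb (411 without B, 252 without E, 914 without H and 908 without I). Chosen after seeing the data, it was 317 in the supported lambs alone and 256 without lambs B and E. DESeq2 gave 23 genes within the late preterm and 5 within the preterm lambs, 363 in the joint test of arms, 391 for supported minus preterm, 2 for late preterm minus preterm and 79 for supported minus late preterm, where edgeR gave 0 in each and also 0 with any 1 lamb left out. Supported lambs against the mean of the unsupported arms, added after seeing the data, gave 0 genes, with 3127 (20.3%) at an unadjusted p under 0.05. The fold changes of the named genes kept their sign in all alternatives run. ENSOARG00000020689, ENSOARG00000015684 and ENSOARG00000020698 were called in 22 of 23 and lost with lambs A, H and I alone (edgeR adjusted p of 0.277 to 0.392). That set is small, holds the shallower lambs and includes both preterm lambs. ENSOARG00000010412 was called in 11 and ENSOARG00000004527 in 16 of 23. With no replicate block ENSOARG00000015112 stood at 6.2 and ENSOARG00000020799 at 4.65 on the log2 scale within the supported lambs, and no mean paired difference moved past its SD with a prior count of 0.5. The cause of the changes in counts and calls was not tested. Gene symbols, depth and arms of 2 lambs limit what can be said.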
